A study of Drosophila melanogaster with 3 samples.

Results

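The weaker pooled peaks at promoters were 4406 regions of the 30000 in the pooled peak list of a chromatin immunoprecipitation and sequencing (ChIP-seq) experiment on CG12391-eGFP in Drosophila melanogaster embryos. They were chosen by 2 measured values. The first was the authors' pooled signal, their own measure of peak strength: peaks overlapping by 1 bp or more any interval kept by an irreproducible discovery rate (IDR) threshold were dropped, and the thresholded list was identical to the 8522 pooled peaks of highest signal. The second was position: the summit, the single base of highest signal in a peak, had to lie within 500 bp of the transcription start site (TSS) of any gene. The drop left 19789 weaker peaks, and 22.3% of them (95% exact interval 21.7 to 22.9) met the distance. Of the 8522 thresholded peaks 49.4% did, and these 4206 are called thresholded promoter peaks. A further 1689 pooled peaks of lower signal were dropped because they touched a thresholded interval. The 15383 weaker peaks away from promoters served as the other reference.

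All samples belong to 1 group of 3 biological replicates: embryos of both sexes pooled, aged 0 to 24 h, from a transgenic line in which CG12391 carries GFP at its C terminus, immunoprecipitated through the GFP. All 3 replicates carry the same fusion protein in whole animals, so no genotype, stage or treatment can be compared. Which cell types contribute to each peak is unknown. Read depth is unknown, and intervals given for shares cover counting error only.

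CG12391 encodes a protein with zinc fingers, a class of domains that often bind DNA. A promoter is the stretch around the TSS where RNA polymerase and its general factors assemble. In flies, promoters of broadly used genes often carry motifs such as the DNA replication-related element (DRE, TATCGATA) and Motif 1 (GGTCACACT), while promoters of genes used in fewer tissues more often carry a TATA box or an Initiator. Many fly genes start back to back and share a divergent promoter. Transfer RNA (tRNA) genes are transcribed by RNA polymerase III and hold their promoter inside the gene.

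The sequences of 7 of the weaker promoter peaks show what such summits looked like. The choice left out the peaks of 1 chromosome arm. Among the others, the 2 of highest pooled signal with each of TATCGATA, GGTCACACT and TATAAA within 50 bp of the summit were taken. So was the 1 of highest signal with none of the 14 motifs searched. Each window reaches 50 bp to either side of the summit and comes from the Release 6 genome assembly with dm6 coordinates, 5′ to 3′ on the strand of the nearest gene. Capitals mark the motif, on either strand.
Dus1, chr2L:271729-271829, minus strand: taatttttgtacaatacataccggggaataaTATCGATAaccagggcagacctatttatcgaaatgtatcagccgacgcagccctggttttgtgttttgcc
MED28, chr3R:25476924-25477024, plus strand: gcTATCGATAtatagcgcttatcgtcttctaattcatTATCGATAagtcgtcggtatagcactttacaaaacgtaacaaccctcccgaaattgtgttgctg
CG12084, chr3L:1496588-1496688, minus strand: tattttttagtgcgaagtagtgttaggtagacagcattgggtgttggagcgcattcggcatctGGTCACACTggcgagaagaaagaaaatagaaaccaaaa
CG5191, chr3R:20560752-20560852, plus strand: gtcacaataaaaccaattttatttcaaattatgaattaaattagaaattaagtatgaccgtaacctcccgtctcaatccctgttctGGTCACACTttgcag
CG14984, chr3L:3952650-3952750, minus strand: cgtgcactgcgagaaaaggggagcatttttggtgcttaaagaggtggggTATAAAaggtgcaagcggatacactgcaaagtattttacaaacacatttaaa
Aladin, chrX:9273249-9273349, plus strand: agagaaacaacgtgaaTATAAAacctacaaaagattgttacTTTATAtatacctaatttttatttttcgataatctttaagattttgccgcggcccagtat
trbl, chr3L:20401564-20401664, minus strand: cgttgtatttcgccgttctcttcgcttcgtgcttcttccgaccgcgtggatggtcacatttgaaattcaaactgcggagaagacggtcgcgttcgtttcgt

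The summit of the Dus1 peak lay 35 bp upstream of the TSS and held 1 TATCGATA. MED28 encodes a subunit of the Mediator complex, which links activators to RNA polymerase II, and its window held 2 copies with the summit 29 bp upstream. The GGTCACACT of CG12084 came with a summit 5 bp into the gene, and that of CG5191 with a summit 63 bp upstream. The Aladin window, beside a gene for a nuclear pore protein, held TATAAA on each strand and was 71.3% A+T. The window of trbl, which encodes the Tribbles pseudokinase that delays cell division, was 48.5% A+T and was centred 5 bp upstream of the TSS.

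Pooled signal ran from 48.59 to 227.2 among the weaker promoter peaks, with a median of 96.0, and from 227.3 to 8433 among the thresholded ones, with a median of 491. The ranges meet because signal set the split, so these values describe the choice. The peaks just below the threshold were those of trbl (chr3L:20401394-20401833, signal 227.2), CG12084 (227.0), ush (226.8), lncRNA:CR44299 (226.5), superdeath (226.5) and Dus1 (226.4). Just above it lay CG14995 (227.3), Gip (227.4) and Pgls (227.5). ush encodes a cofactor of GATA transcription factors, and the weaker summit lay 30 bp downstream of one of its start sites. At the distance limit, 7 peaks had a summit exactly 500 bp from a TSS, led by Fbxl7 (129.7) and Btk (117.4), and 7 weaker peaks at 501 bp, led by Su(dx) (140.4), fell outside.

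Support was counted in each replicate's own peak list. A top peak of a replicate is 1 of its 8522 peaks of highest signal on the chromosome arms, so that the lists are compared at equal length. Of the weaker promoter peaks, the share overlapping a top peak was 20.3%, 4.68% and 12.4% for replicates 1, 2 and 3, a mean of 12.5% ± 7.83 (SD, n = 3). Replicate 1 held the largest share and replicate 2 the smallest. Of the thresholded promoter peaks, 86.9%, 88.6% and 90.2% had such an overlap, in the same order. Of the weaker peaks away from promoters, 5.27%, 2.93% and 3.97% did so. The weaker promoter peaks thus had the middle share in every replicate, and the gap to the thresholded ones is built in, since the pooled signal was computed on the same 3 alignments.

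Top peaks of all 3 replicates were found at 25 of the 4406 weaker promoter peaks, or 0.567%, against 0.182% of all 19789 weaker peaks and 72.9% of the thresholded promoter peaks. The 0.182% counts 36 peaks, of which the 25 are part. Overlap is a loose measure here: in 7 of the 25 the summits of all 3 replicate peaks fell inside the pooled peak, as at trbl with ranks 4137, 7890 and 8488, and in 2 none did. A top peak of exactly 2 replicates was found at 325, of exactly 1 at 924, and of none at 3132, which is 71.1%. With every peak of a replicate counted, and not its top peaks alone, the overlap was 79.2%, 78.8% and 82.7%, a mean of 80.2% ± 2.15 (SD, n = 3), and a peak of all 3 replicates was found at 2445, or 55.5%. Away from promoters 39.4% of the weaker peaks had a peak in all 3, and their pooled signal was lower, with a median of 77.5 against 96.0; its part in this difference was not tested. No replicate had any peak at 69 of the weaker promoter peaks, or 1.57%.

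**Figure D1:**
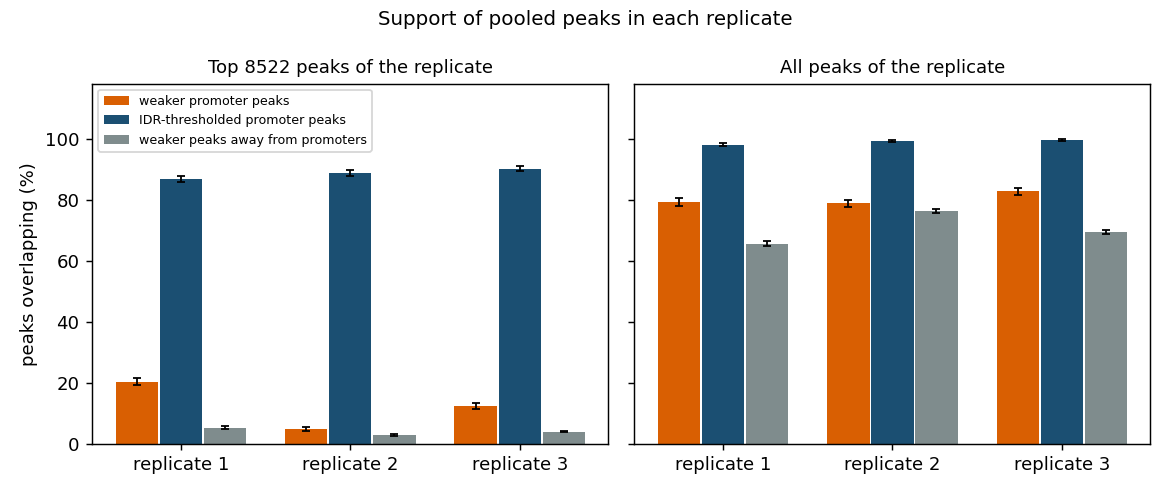
Bars give the percentage of pooled peaks that overlap a replicate's 8522 top peaks (left) or any of its peaks (right), per replicate, with 95% exact intervals, for the weaker promoter peaks, the thresholded promoter peaks and the weaker peaks away from promoters. On the left the weaker promoter peaks stand at 20.3%, 4.68% and 12.4%; on the right at 79.2%, 78.8% and 82.7%.

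The replicates ranked the weaker promoter peaks much less alike than the thresholded ones. Over the 2445 with a peak in every replicate, the Spearman correlation of signal was 0.136 for the pair of replicates 1 and 2, 0.381 for 1 and 3 and 0.264 for 2 and 3. Over 4078 thresholded promoter peaks it was 0.616, 0.831 and 0.751 for the same pairs, and over 6058 weaker peaks away from promoters 0.184, 0.310 and 0.357. Low correlations were thus seen in both sets of weaker peaks. These are correlations across peaks of the same libraries, given as a description, and a narrower range of pooled signal goes with the weaker peaks. The fz2 peak, at a receptor of the Wingless signal, had ranks 3031, 25241 and 7311 in replicates 1, 2 and 3. The dsh peak, at a gene whose product passes that signal on, had ranks 15965, 6540 and 13436. The lowest-ranked replicate peak at each had its summit outside the pooled peak. It was 260 bp from the pooled summit at fz2, in replicate 2, and 238 bp at dsh, in replicate 1.

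Peaks that reached the top list of 1 replicate alone differed in composition between replicates. This grouping was chosen after the values were seen. The 573 weaker promoter peaks in the top list of replicate 1 alone had a mean A+T content of 58.1% ± 10.1 (SD over peaks), the 227 of replicate 3 alone 59.0% ± 9.71, and the 124 of replicate 2 alone 64.9% ± 8.84. The summit lay upstream of the TSS in 58.6%, 62.6% and 74.2% of the sets of replicates 1, 3 and 2. TATAAA was in the window of 11.9%, 9.25% and 25% of them, and TATCGATA in 5.24%, 5.73% and 1.61%. The set of replicate 2 was thus the richest in A+T and TATAAA and the poorest in TATCGATA. Among the 350 in the top lists of at least 2 replicates, A+T was 58.1% ± 10.1, and 33.7% had the summit in a 5′ UTR.

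The peak with the best worst rank over the 3 replicates was at Rcd5 (chr3L:4040228-4040596), a gene for a subunit of the NSL chromatin complex. Its pooled signal was 80.13, below the median of the weaker promoter peaks, yet it had ranks 1352, 1477 and 2179, with signals of 183.2, 562.4 and 180.5 on the replicates' own scales. The nearest thresholded interval was 8452 bp away. Its pooled summit lay 61 bp into the gene, and the replicates' summits were 187, 164 and 185 bp from it but inside the pooled peak. The RpL9 peak (chr2L:11004192-11004631), at a gene of the large ribosomal subunit that lies beside the nucleoporin gene Nup154, had a pooled signal of 60.96 and ranks 1660, 5279 and 3084, but the replicates' summits were 304, 237 and 275 bp away, outside the pooled peak in all 3. Both regions touched stronger replicate peaks than their pooled signal shows. Next came Hydr1, CG9328, lncRNA:CR44589, Fim, CG42238 and POLDIP2, with worst ranks from 5617 to 6675. At Hydr1, CG9328, lncRNA:CR44589 and POLDIP2 a thresholded interval lay 165, 123, 277 and 474 bp from the pooled summit. The replicate 2 summit fell outside the pooled peak at Hydr1, CG9328 and POLDIP2, as did that of replicate 3 at CG9328 and that of replicate 1 at Fim. Fim encodes the actin-bundling protein fimbrin, and its weaker summit lay 475 bp upstream of the TSS with a thresholded interval 190 bp away. The CG42238 peak (chr2L:21052136-21052575, signal 182.4) had ranks 6499, 5309 and 4238, with the summit inside the pooled peak in replicate 2 only, and its nearest thresholded interval was 13319 bp away.

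Summits of the weaker promoter peaks were less one-sided about the TSS and more often inside the gene. They were upstream of the nearest TSS in 61.0% (95% exact interval 59.5 to 62.4), against 83.3% of the thresholded promoter peaks. The median signed distance was −43 bp against −107 bp, although the median distance without sign was larger, at 144 bp against 120 bp. From 250 to 51 bp upstream lay 29.6% of the weaker and 56.2% of the thresholded summits, and within 50 bp of the TSS 23.6% and 18.6%. From 51 to 250 bp downstream lay 16.3% and 6.68%, and farther downstream 12.1% and 3.45%. The weaker summits were thus spread over both sides, with their fullest 50 bp bin just upstream of the TSS, and the thresholded ones gathered at 100 to 150 bp upstream.

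**Figure D2:**
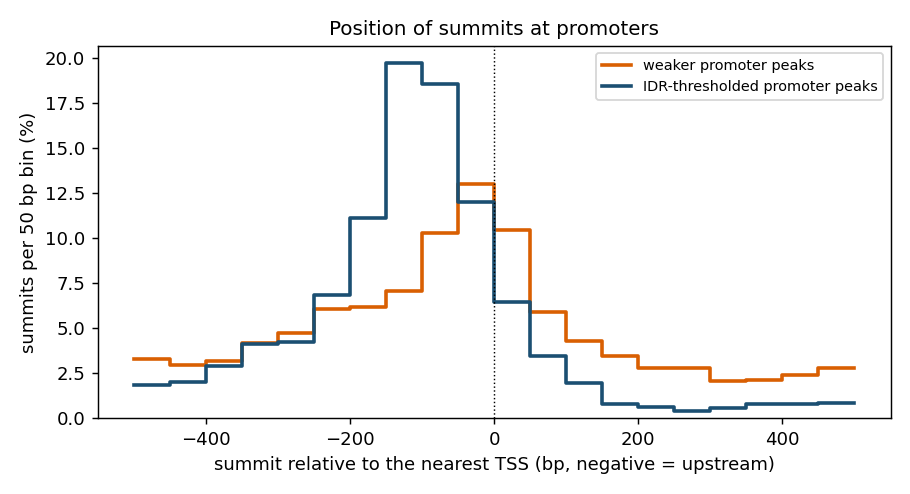
Lines give the percentage of summits in each 50 bp bin of distance to the nearest TSS, in bp along the gene's strand with negative values upstream. The weaker promoter peaks reach 13.0% in the bin from −50 bp to the TSS, the thresholded ones 19.7% in the bin that starts at −150 bp.

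The same difference was seen in each replicate's own summits, taken from the replicate peak of highest signal that overlaps each pooled peak. Not every pooled peak had one, and several could share 1. The weaker promoter peaks gave 2972, 2881 and 3112 replicate peaks in replicates 1, 2 and 3. The thresholded ones gave 3832, 3851 and 3889. The summit was upstream for 61.8%, 61.7% and 61.5% of replicate peaks at weaker promoter peaks, and for 80.0%, 83.0% and 82.8% at thresholded ones. The groups did not overlap. The difference was −20.3 percentage points ± 1.77 (SD, n = 3), lower in 3 of 3 replicates, with an exact two-sided sign-flip permutation p of 0.25, the smallest that 3 replicates allow. The median distance between a pooled summit and that of its replicate peak was 65.5, 47 and 61 bp in replicates 1, 2 and 3, as wide as a 50 bp bin or nearly so. The replicate summit fell inside the pooled peak for 85.5%, 84.0% and 86.5% of those with a replicate peak.

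By annotation, 23.6% of the weaker promoter summits fell in a 5′ UTR, 27.6% in an intron and 35.0% between genes, against 14.2%, 20.9% and 60.1% of the thresholded ones. Coding exons held 217 weaker summits, or 4.93%, and 16 thresholded ones, or 0.380%. Non-coding exons held 6.15% and 3.04%, and 3′ UTRs 2.75% and 1.45%. Examples of weaker summits in a coding exon of any gene lay 259 bp downstream of a TSS of mib1 (chr3L:16009830-16010269, signal 114.2) and 249 bp upstream of a TSS of dwg (signal 69.48). Peak width hardly varied: 98.1% of the weaker promoter peaks were 440 bp long, against 32.1% of the thresholded ones. With this fixed width, 1300 of them, or 29.5%, overlapped another weaker promoter peak.

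Base composition differed between weaker and thresholded promoter summits. In the same windows as above, A+T content averaged 59.5% ± 10.7 (SD over 4406 peaks) and 67.1% ± 10.2 (SD over 4206 peaks). In windows centred 500 bp to either side it was 56.7% and 54.0%, so the summit exceeded its flanks by 2.84 percentage points in the weaker and 13.0 in the thresholded promoter peaks. Windows centred on all 23307 TSS positions averaged 56.6%. Away from promoters the weaker peaks had 61.8% at the summit, 4.35 above their flanks. The weaker promoter peaks therefore had the smallest rise of the 3 sets.

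**Figure D3:**
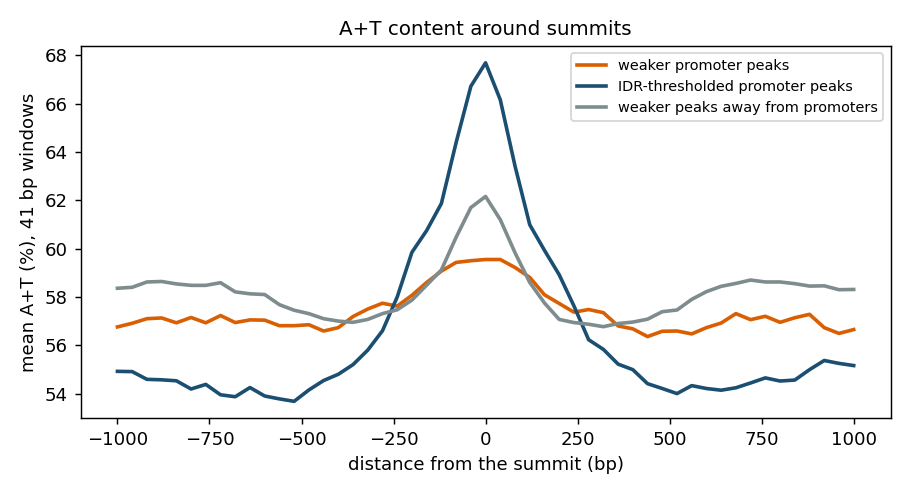
Lines give the mean A+T content (%) of 41 bp windows by distance from the pooled summit, in bp, for the 3 sets of peaks; the vertical axis does not start at 0. The thresholded promoter peaks rise to 67.7% at the summit, the weaker peaks away from promoters to 62.2% and the weaker promoter peaks to 59.5%, with no narrow crest.

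The difference in A+T content was also seen at matched positions. Summits within 50 bp of the TSS averaged 55.0% in the weaker and 58.6% in the thresholded promoter peaks, and those from 250 to 51 bp upstream 61.4% and 69.0%. Downstream, from 51 to 250 bp, the means were 58.1% and 65.6%. A+T was also taken at the summits of the replicate peaks counted above. In replicates 1, 2 and 3 it was 58.0%, 61.7% and 58.5% for those at weaker promoter peaks. For those at thresholded ones it was 65.8%, 67.7% and 65.9%. Every weaker value lay below every thresholded one. The difference was −7.06 percentage points ± 0.941 (SD, n = 3), lower in 3 of 3 replicates (exact two-sided sign-flip permutation p = 0.25, the smallest possible).

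Among promoter motifs, searched on both strands in the same windows, TATCGATA and CATCNCTA were less frequent at weaker than at thresholded promoter summits, and GA and CA repeats more frequent. TATCGATA was in 117 windows, or 2.66%, against 4.57% of thresholded windows, 0.221% of windows away from promoters and 3.78% of windows on all TSSs. Its shorter part CGATA, bound by the boundary factor BEAF-32 and contained in every TATCGATA, was in 16.9%, 22.97%, 11.3% and 21.4% in the same order. CATCNCTA was in 1.09%, 2.62%, 0.618% and 2.92%. GGTCACACT was in 1.75% and 2.19% of the weaker and thresholded windows, against 0.0910% away from promoters and 3.04% at all TSSs. The weaker promoter peaks thus stood between the thresholded ones and the weaker peaks elsewhere for these 4 sequences. In the stronger 50% of the weaker promoter peaks the difference to the thresholded ones was −0.389 percentage points for TATCGATA, against −1.91 over all of them, and for GGTCACACT it turned from −0.44 to 0.54. CAGCTG was in 5.83% of the weaker and 4.66% of the thresholded windows.

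TATAAA showed the widest gap, with 13.6% of weaker and 24.6% of thresholded promoter windows, against 17.3% away from promoters and 15.0% at all TSSs. The A+T-only word AAAATATT was in 4.04% and 7.39% of the weaker and thresholded windows, and AAAAAAAA in 6.29% and 7.25%. These 3 sequences consist of A and T alone, and the part of A+T content in their shares was not tested. Higher in the weaker windows were GAGAGAG, bound by the GAGA factor, with 2.81% against 0.951%, CACACACA with 2.93% against 0.832%, and TCAGTT, an Initiator form, with 8.65% against 5.85%. Away from promoters and at all TSSs, GAGAGAG was in 1.44% and 1.53%, CACACACA in 2.66% and 1.93%, and TCAGTT in 6.32% and 14.8%. CACACACA was thus about as frequent in weaker peaks away from promoters, and TCAGTT more frequent at all TSSs than in either set of peaks. AGGNGGC, the core of the CTCF motif, was in 3.22% and 2.16%, with 3.15% away from promoters and 3.13% at all TSSs. CAGGTAG, bound by the pioneer factor Zelda, was in 0.431% and 0.333% of the weaker and thresholded windows. For AGATAAG, which factors such as Serpent bind, the shares were 1.48% and 1.26%. None of the 14 sequences was found in 46.9% of the weaker promoter windows and 38.4% of the thresholded ones.

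Of the 14 motif differences, 12 had 1 direction in all 3 replicates' own summits, and those of CAGGTAG and AGATAAG did not. At those summits TATAAA differed by −10.2 percentage points ± 0.778, TATCGATA by −1.54 ± 0.205, GAGAGAG by 2.46 ± 1.23 and CACACACA by 2.27 ± 0.226 (SD, n = 3). Each of these had an exact sign-flip permutation p of 0.25 and an adjusted p of 0.292 over the 14 motifs, so none could pass a threshold of 0.05 in this design. In replicates 1, 2 and 3, GAGAGAG was in 4.07%, 1.87% and 4.34% of windows on replicate summits of the weaker set. For the thresholded set it was in 0.966%, 0.831% and 1.11% of such windows. Replicate 2 had the lowest share in both sets. Position entered as well: within 50 bp of the TSS, TATCGATA was in 7.42% of weaker and 12.9% of thresholded windows.

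Within the weaker promoter peaks, several features differed by signal. Split into 4 equal bins of pooled signal at 67.4, 96.0 and 145.2, A+T at the summit was 58.1%, 58.5%, 60.4% and 61.1% from the weakest to the strongest bin, and 62.2% in the weakest bin of the thresholded ones. The upstream share was 54.6%, 58.3%, 63.1% and 67.9%, against 76.8% in the weakest thresholded bin. TATCGATA was in 0.907%, 1.45%, 2.63% and 5.63%, and GGTCACACT in 0.363%, 1.18%, 1.73% and 3.72%. The strongest bin of weaker peaks held more GGTCACACT than the thresholded promoter peaks as a whole. Above the threshold the shares of both motifs were highest in the 2 lower bins, at 5.99% and 6.18% for TATCGATA and 4.37% and 2.95% for GGTCACACT, and lowest in the strongest bin, at 1.71% and 0.190%. Both motifs were therefore most frequent around the threshold. The median distance of the summit from the TSS was smallest there too. From the weakest bin up it was 186.5, 165, 133 and 104 bp in the weaker promoter peaks. In the thresholded ones it was 89, 103, 124 and 146 bp. The part of distance in the motif shares was not tested. Bins hold peaks of the same 3 libraries, and no test was made.

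**Figure D4:**
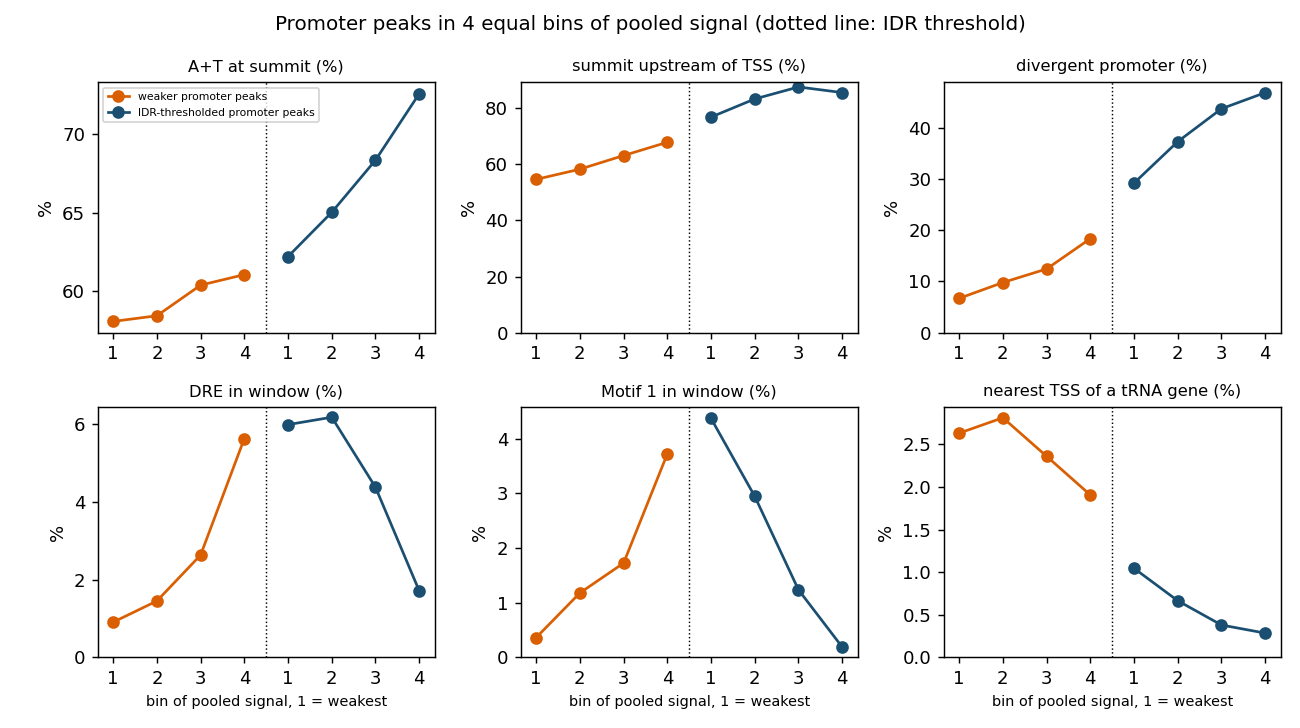
Each panel gives 1 percentage by bin of pooled signal, each with an equal share of the peaks, from the weakest (1) to the strongest (4), for the weaker and, right of the dotted line, the thresholded promoter peaks; the A+T panel does not start at 0. The DRE (TATCGATA) reaches 5.63% in the strongest bin of weaker peaks and ends at 1.71% in the strongest thresholded bin, while the divergent share goes from 6.72% to 46.8%.

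Peaks in every replicate were found at 24.2% of the weakest bin and 88.7% of the strongest, a difference built in because the pooled signal comes from the same 3 alignments. Divergent promoters, with TSSs of at least 2 genes on opposite strands within 500 bp of the summit, made up 6.72%, 9.80%, 12.4% and 18.4% of the 4 bins. The order of the TSSs was not checked, so genes that face or overlap each other can be counted as well. In all, 521 of the weaker promoter peaks, or 11.8%, were divergent, against 39.2% of the thresholded ones and 24.4% of all TSS positions. A single gene lay within 500 bp of 84.1% of the weaker and 58.1% of the thresholded summits. The divergent share and the upstream share thus differed together between the sets, and the part of the one in the other was not tested.

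The gene at the nearest TSS was protein-coding for 84.5% of the weaker promoter peaks, against 93.6% of the thresholded ones and 77.9% of all 17896 genes on the arms. tRNA genes were nearest to 107 weaker peaks, or 2.43% (95% exact interval 1.99 to 2.93), and to 25 thresholded ones, or 0.594%, and make up 1.62% of genes. Small nucleolar RNA genes were nearest to 23 and 5, microRNA genes to 21 and 6, and small nuclear RNA genes to 9 and 5. Other non-coding RNA genes were nearest to 11.8% and 5.45%. Annotated rRNA genes were nearest to none of either set, for which a count of 0 allows a share of up to 0.0837% of the weaker promoter peaks. From the weakest to the strongest bin the tRNA share was 2.63%, 2.81%, 2.36% and 1.91%, and it was 1.05% in the weakest thresholded bin.

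Counted per gene, 127 of 290 tRNA genes (43.8%, 95% exact interval 38.0 to 49.7) had a weaker summit and no thresholded one within 500 bp of a TSS, on 108 peaks. Over all protein-coding genes this share was 17.6% (2460 of 13945 genes), while 34.4% had a thresholded summit and 626 genes had both kinds. A thresholded summit was found at 58 tRNA genes. With each summit given to its single nearest TSS, 90 tRNA genes had only a weaker one, and 104 with a distance of 250 bp. Over all protein-coding genes these counts were 2236 and 2100. tRNA genes occur in clusters of near-identical copies, and where reads of one copy were placed is not known, so the split between copies is uncertain. The peak of highest signal, 219.3, lay between tRNA:Ile-AAT-1-7 and tRNA:Ile-AAT-1-6, with ranks 2631, 22516 and 11360 in replicates 1, 2 and 3. The next, at tRNA:Tyr-GTA-1-5 and tRNA:Tyr-GTA-1-4 (chr3R:8642453-8642892), had a signal of 215.8 and ranks 7114, 10404 and 11639. The first was a top peak in replicate 1. In replicate 2 it overlapped a peak far down the list, whose summit lay 457 bp from the pooled summit and outside the pooled peak.

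In the share with only a weaker summit, the other non-coding genes listed here were closer than tRNA genes to the protein-coding background of 17.6%. Fewer of them than of protein-coding genes had a thresholded summit. A weaker summit alone was found at 40 of 260 microRNA genes (15.4%), 28 of 269 small nucleolar RNA genes (10.4%), 8 of 32 small nuclear RNA genes and 540 of 3001 other non-coding RNA genes (18.0%). The exact interval for small nucleolar RNA genes (7.03 to 14.7) lay below 17.6%. In the same order, a thresholded summit was found at 6.54%, 7.4%, 21.9% and 10.9%, against 34.4% of all protein-coding genes. Neither kind was found at 78.1%, 82.2%, 53.1% and 71.1%, against 47.9%. The mir-275 peak (chr2L:7425162-7425601, signal 223.7) and the mir-279 peak (chr3R:29215150-29215589, signal 210.2) led the microRNAs. mir-279 is known to limit the formation of carbon dioxide sensing neurons. For mir-275 the ranks were 12303, 7573 and 6344. The leading small nucleolar RNA was snoRNA:Psi18S-301 (signal 205.3), with ranks 3814, 17353 and 9208.

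Among detoxification genes the glutathione transferases had a high share with only a weaker summit. In that share the other families were near the background, but few of their genes had a thresholded summit. Of 35 glutathione transferase genes, whose products couple glutathione to toxins, 18 (51.4%, 95% exact interval 34.0 to 68.6) had only a weaker summit, on 23 peaks, against the background of 17.6%, and 5 had a thresholded one. With each summit given to its single nearest TSS the count was again 18, and with a distance of 250 bp it was 12. Many Gst genes are related copies in tandem arrays, so the placement of reads between copies is uncertain. The GstE11 peak had a signal of 208.9 and the GstD5 peak (chr3R:12375190-12375629) of 139.6, the latter with ranks 13627, 16633 and 13690. GstE11 had no peak in replicate 1. Of 35 UDP-glycosyltransferase genes 8 (22.9%, 10.4 to 40.1) and of 77 cytochrome P450 genes 14 (18.2%, 10.3 to 28.6) had only a weaker summit, close to 17.6%. A thresholded summit was found at 2 (5.71%) and 5 (6.49%) of them, and at 14.3% of glutathione transferase genes, against 34.4% of all protein-coding genes. Neither kind was found at 71.4% of UDP-glycosyltransferase and 75.3% of P450 genes, against 47.9% of all protein-coding genes. Ugt36D1 (signal 162.8) had ranks 6531, 8221 and 6562, a top peak of each replicate, while Ugt305A1 (217.7) had no peak in replicate 3. Cyp6d5 (120.2) had ranks 12587, 20756 and 10895.

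Developmental signalling genes had weaker and thresholded summits in varying shares, set here beside 17.6% of all protein-coding genes with only a weaker one and 34.4% with a thresholded one. Of 23 genes of the Wingless and Hedgehog pathways, which pattern segments, 13 had a thresholded summit and 9 (39.1%, 95% exact interval 19.7 to 61.5) only a weaker one. The fz2 peak (chr3L:19170398-19170837, signal 219.2) lay 30 bp into the 5′ UTR, and the dsh peak (chrX:11355541-11355980, signal 222.9) 120 bp upstream. Of 17 Notch pathway genes 8 had a thresholded summit and 6 (35.3%, 14.2 to 61.7) only a weaker one, an interval that includes 17.6%. The fng peak (chr3L:20949252-20949691, signal 199.5), at the gene for the glycosyltransferase that modifies Notch, had ranks 3355, 18087 and 8964. mam and mib1 carried a weaker summit besides a thresholded one. Of 21 genes of the Dpp and EGFR pathways 9 had a thresholded summit and 7 (33.3%, 14.6 to 57.0) only a weaker one, which again includes it. Among the latter was Med, the shared Smad of the Dpp pathway (signal 205.2), with ranks 6726 and 8167 in replicates 1 and 2 and no peak in replicate 3.

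Of 19 mesoderm and muscle genes 7 (36.8%) had a thresholded summit and 9 (47.4%, 95% exact interval 24.5 to 71.1) only a weaker one. Over all protein-coding genes these shares were 34.4% and 17.6%. The summit at sna (chr2L:15478046-15478485, signal 216.5), the repressor that marks the mesoderm, lay 6 bp upstream of the TSS, with ranks 4517, 12327 and 9413. how, an RNA-binding protein of muscle and tendon, had a signal of 198.8 and ranks 5111, 6827 and 9055. Of 24 neural genes 8 (33.3%, 15.6 to 55.3) had only a weaker summit, an interval that includes 17.6%, and 3 (12.5%) a thresholded one. The synaptic genes Syx1A (192.6), cpx (109.9) and Syt1 (102.3) led, of which Syx1A alone had a peak in every replicate. Of 8 Hox genes, which set segment identity, 1 (12.5%) had a thresholded summit. Only a weaker one was found at 3 (37.5%, 8.52 to 75.5, which includes 17.6%), namely lab (169.0), pb (167.2) and Ubx (103.1). The Ubx ranks were 15267, 23608 and 16298, outside the top peaks of every replicate. Of 20 segmentation genes 3 (15%) had a thresholded summit, against 34.4%, and 70% had neither kind, against 47.9% of all protein-coding genes. Only a weaker summit was found at 3 (15%), close to 17.6%, namely odd (120.6), run (111.8) and hh (97.47). Of these, odd had a peak in replicate 1 alone, and run had none in replicate 2.

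Housekeeping lists were mostly thresholded. A weaker summit alone was found at 5 of 85 genes of the cytoplasmic ribosome (5.88%), 11 of 73 of the mitochondrial ribosome, 10 of 84 of oxidative phosphorylation, 4 of 32 of the proteasome, 4 of 33 of the vacuolar ATPase and 3 of 32 aminoacyl-tRNA synthetases. The thresholded counts in that order were 73, 48, 47, 25, 17 and 20. These are shares from 51.5% for the vacuolar ATPase to 85.9% for the cytoplasmic ribosome. Of all protein-coding genes 34.4% had a thresholded summit and 17.6% only a weaker one. The exact interval for only a weaker summit lay below 17.6% for the cytoplasmic ribosome (1.94 to 13.2). Those of the other lists in this paragraph included it, as for the mitochondrial ribosome (15.1%, 7.77 to 25.4). With each summit given to its single nearest TSS, the counts of only a weaker summit were 4, 7, 8, 2, 4 and 4 in the same order. Over all protein-coding genes the count was then 2236. RpS15Ab (146.8) and RpS10a (126.7), which encode proteins of the small subunit, led the cytoplasmic ribosome. RpS15Ab had no peak in replicate 1. The 4 proteasome genes included Prosbeta4 (220.5), Prosbeta7 (219.7) and Prosbeta6 (191.6), subunits of the catalytic core. The summit counted for Prosbeta4 lay 321 bp from its TSS and nearer, at 96 bp, to that of Nubp1. The Prosbeta7 summit lay 28 bp upstream, with ranks 7435, 10625 and 6619. UQCR-Q (chr3L:17474790-17475229), a subunit of respiratory complex III, had a signal of 226.1 and ranks 6415, 9739 and 12525.

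Cell cycle, Polycomb and trithorax, and insulator genes were likewise mostly thresholded, with weaker summits at a few members. Of 33 cell cycle and replication genes 27 had a thresholded summit and 4 only a weaker one, among them CycE (187.3), which drives entry into S phase, and PCNA (135.8), the sliding clamp of DNA replication. Of 22 Polycomb and trithorax genes 17 had a thresholded summit and 1, Pc itself (chr3L:21317812-21318251, signal 200.1), only a weaker one. Its ranks were 8070, 11319 and 7727. Of 14 insulator and architectural genes 9 had a thresholded summit and 3 had only a weaker summit: Ibf1 and Ibf2, which share 1 peak (163.3), and dwg. The last had no peak in replicate 2. Ecdysone response and heat shock genes were near the shares of all protein-coding genes, 34.4% and 17.6%. Of 14 ecdysone response genes 6 (42.9%) had a thresholded summit and 3 (21.4%) only a weaker one, including Hr4 (198.2) and Eip74EF (174.4). Eip74EF had no peak in replicate 1. Of 21 heat shock genes 8 (38.1%) had a thresholded summit and 3 (14.3%) only a weaker one, including Hsf (135.6), the heat shock factor, and Hsp68 (133.7). Hsp68 had no peak in replicate 2.

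Genes of sense organs, cuticle, secreted proteases and peptides mostly had neither kind of summit, and germline genes varied by list. Of 179 chemosensory receptor genes 9 (5.03%) had only a weaker summit and none a thresholded one. The Gr63a peak (chr3L:3896625-3897064, signal 179.9), at a gene for a carbon dioxide receptor, had ranks 4370, 13018 and 21222. Gr97a had a signal of 200.2. Of 122 cuticle protein genes 8 had only a weaker summit and 2 a thresholded one, and of 51 odorant-binding protein genes 5 and 2. Of 26 neuropeptide and receptor genes 3 had only a weaker summit, of 27 Jonah and trypsin proteases 3, of 14 antimicrobial peptide genes 4, of 11 genes for yolk, vitelline membrane and Cp7F 2, and of 25 Osiris genes 1, with no thresholded summit in any of these lists. Signals were low at many of them, such as Akh (73.41), Yp3 (68.65), Osi21 (67.73), CecA2 (65.79) and Jon65Aii (49.38), none with a peak in every replicate. Of all protein-coding genes 17.6% had only a weaker summit and 34.4% a thresholded one. The 95% exact intervals for only a weaker summit lay below 17.6% for chemosensory receptors (2.33 to 9.33) and cuticle proteins (2.87 to 12.5). Those of the other lists named so far in this paragraph included it, as for antimicrobial peptides (28.6%, 8.39 to 58.1). Of 20 male germline genes 3 had a thresholded summit, 1 only a weaker one and 16 neither. Of 17 ovarian germline and piRNA genes 7 had a thresholded summit, 2 only a weaker one and 8 (47.1%) neither, against 47.9% of all protein-coding genes with neither. Counts of only a weaker summit in several of these lists depended on the distance allowed: with 250 and 1000 bp they were 4 and 19 for chemosensory receptors, 3 and 14 for cuticle proteins, 3 and 8 for odorant-binding proteins, and 2 and 8 for antimicrobial peptides. None of the 111 replication-dependent histone genes had either kind, in a tandem repeat where reads may not be placed uniquely.

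**Figure D5:**
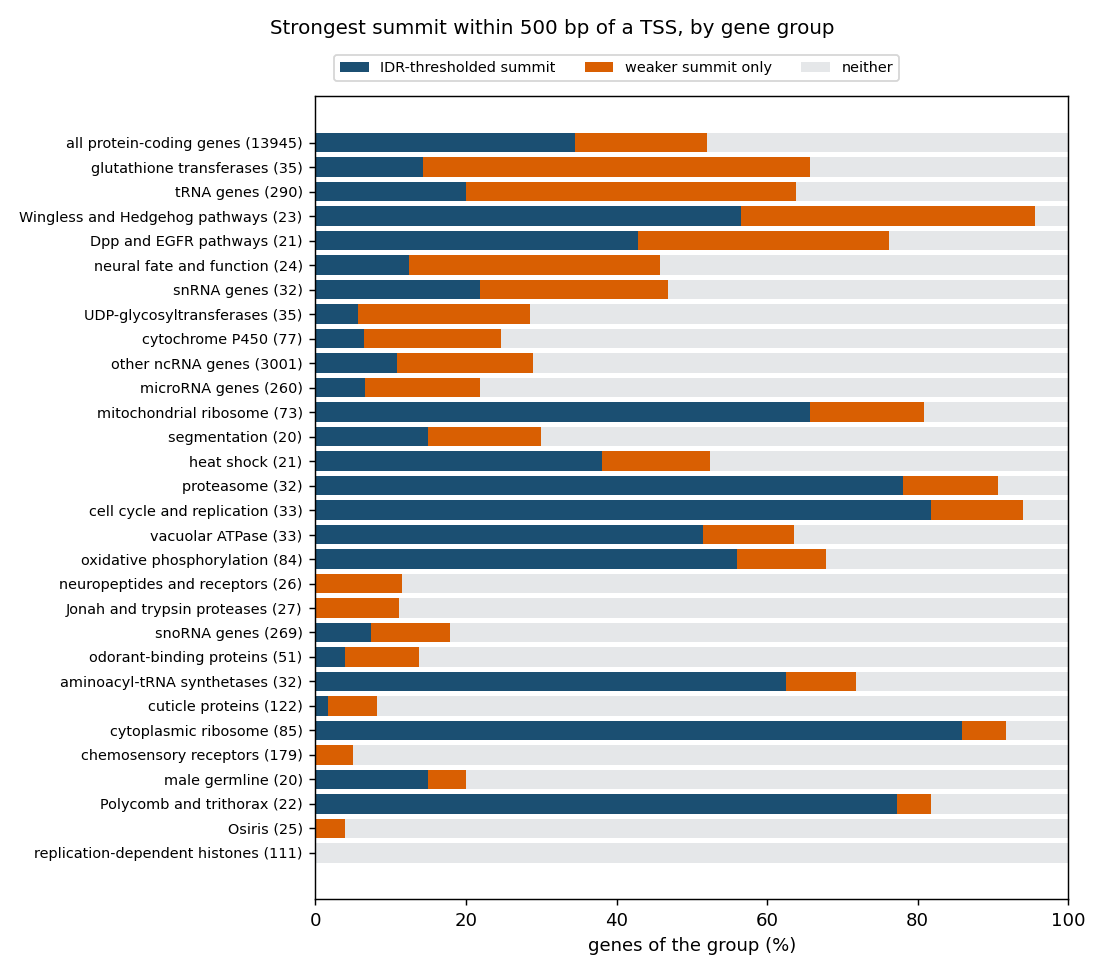
Bars give, for gene groups of 20 genes or more (number in brackets), the percentage of genes with a thresholded summit, with only a weaker summit, and with neither, within 500 bp of a TSS. Glutathione transferases reach 51.4% and tRNA genes 43.8%, all protein-coding genes 17.6%, the cytoplasmic ribosome 5.88%.

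Of the 3866 genes with a weaker summit at a TSS, 663 also had a thresholded one, and 1006 of the weaker promoter peaks, or 22.8%, were at such a gene. Examples of genes with both kinds were tkv (signal 211.7), the Dpp receptor, EcR (210.6), the ecdysone receptor, and stg (149.4), the phosphatase that triggers mitosis. A gene had 1 weaker summit in 2843 cases, 2 in 813 and at least 3 in 210, up to 7 at each of Svil, sgg and ttk. At ttk, 4 of the 7 overlapped a single replicate 2 peak of rank 8815, so several members can rest on 1 replicate peak. The nearest thresholded interval was within 1000 bp of 876 weaker promoter peaks (19.9%), and the median gap was 2806 bp.

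By chromosome arm, the weaker promoter peaks were distributed much like genes, with the X above and 3R below. Arm X held 20.1% of them and 15.3% of genes, 2R 22.7% and 20.7%, 3R 20.1% and 24.0%, 2L 17.4% and 19.9%, and 3L 19.4% and 19.6%. Chromosome 4 held 12 peaks, or 0.272%, and 0.620% of genes.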

How the data were processed

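Peak lists on dm6 were analysed for 3 replicates, the pooled replicates and an IDR threshold. Per the deposited file lists, each replicate was called against 1 control shared by all 3. The aligner, caller, versions and IDR setting are not given in the sources used here. Peak strength is the authors' deposited signal value, on a scale not stated, which was used only for ranking, filtering and rank correlation within lists. The deposited −log10 q-value was not used, since it reaches a ceiling. Deposited summit offsets gave the summits. No counts were analysed, so depth is unknown.

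Genes came from Ensembl release 115 without transposable elements and pseudogenes, sequence from the Release 6 assembly. A set of 22 mitochondrial peaks of replicate 1 was left out. Analyses used Python 3.11.15, numpy 2.4.6, scipy 1.17.1 and pandas 2.3.3, with shares given 95% exact Clopper-Pearson intervals. Only replicates were tested, by exact sign-flip permutation, and motif p-values were adjusted by the Benjamini-Hochberg method. Scripts were tested on simulated data.

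The peaks and the 32 gene lists were chosen with earlier results of these data known. The lists' symbols were found for 313 of 330 genes. After values were seen, a P450 reductase was removed from the cuticle list and 1 list was renamed. MicroRNA genes were told by symbol. Genes named are those nearest the thresholds, the 8 with the best worst rank, and those of highest signal per list and RNA kind, with Svil and ttk added after their values were seen. Alternatives tried were the promoter distance, the overlap, the window, the TSS set, each replicate left out, each 50% of the peaks by signal, and distance from thresholded peaks.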

Additional observations from a re-analysis of the deposited data

How the results depend on the processing

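The directions of the differences in upstream share, A+T content and TATCGATA share between weaker and thresholded promoter peaks were kept under all alternatives run, and only their sizes moved. Of 61 alternatives for the main results 28 stayed within the set limits and 33 moved. Of 210 for single motifs and gene lists 157 stayed, 52 moved and 1 reversed. The cause was not tested. The share of weaker peaks at promoters (22.3%) was 15.5% at 250 bp, 34.3% at 1000 bp, 19.2% with protein-coding TSSs alone and 21.5% over 1000 bp from thresholded intervals. The share with a top peak of all replicates (0.567%) was 0.136% at a reciprocal overlap of 50%, 55.5% with every replicate peak, 0.908% in the stronger 50% and 0.227% in the weaker 50%. It was 1.18% to 6.65% when 1 replicate was left out, and the 6.65% was without replicate 2. The upstream difference (−22.3 points) was −17.8 in the stronger and −26.9 in the weaker 50%. The A+T difference (−7.55) was −6.22 with windows of 100 bp to either side, −6.32 in the stronger and −8.78 in the weaker 50%. The TATCGATA difference (−1.91) was −5.28 with these windows, −2.12 at 1000 bp, −0.389 in the stronger 50%, −3.43 in the weaker 50% and −1.70 far from thresholded peaks. That of GGTCACACT (−0.44) reversed to 0.54 in the stronger 50%. The protein-coding share (84.5%) was 86.1% with any gene, 86.6% at 250 bp, 86.8% in the stronger and 82.3% in the weaker 50%. The divergent share (11.8%) was 7.94% at 250 bp, 17.6% at 1000 bp, 9.59% with protein-coding TSSs, 15.4% in the stronger and 8.26% in the weaker 50%. The share within 1000 bp of a thresholded interval (19.9%) was 23.9% at 1000 bp, 21.2% in the stronger and 18.6% in the weaker 50%. Over replicates, leaving 1 out gave −7.59 to −6.71 points for A+T, −21.3 to −19.8 for upstream and −1.65 to −1.45 for TATCGATA. No paired analysis was possible because there is no second group of samples to pair with; the sign-flip tests compare 2 sets of peaks within each replicate.

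Depth is unknown, so a missing peak in a replicate is not evidence of absence. The lists share the same 3 alignments and end at 30000 peaks, so support by replicates is not independent. With 3 replicates no exact p can fall below 0.25.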
